A study of Neurospora crassa with 24 samples.

Results

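The response to light of vegetative mycelia that lack the velvet gene *ve-1* was measured in 4 of the 24 RNA-seq libraries of a study of *Neurospora crassa*, a filamentous fungus. The libraries were chosen by their labels. All came from the Δ*ve-1* strain grown as vegetative mycelia for 48 h at 22°C, and 2 of them received light for the last 30 min whereas the other 2 stayed in the dark. Every one of the 9758 genes in the table of counts was considered, and 7760 of them had enough counts to be tested. Comparisons were made with the same light treatment of wild-type vegetative mycelia (4 libraries) and with the aerial tissue that the same strain formed within 15 h of conidiation, again kept dark or given light at the end for 30 min (A15, 4 libraries). By the methods of the study, the A15 cultures were grown at a higher temperature, in shaken liquid medium and then on solid medium, whereas the labels repeat the vegetative protocol for them, so that stage, temperature and culture cannot be told apart. Both strains are labelled with the OR74A background, and the deletion of *ve-1* is the only change stated for the mutant, in the dark and the light cultures alike. The mutant came from a public collection of knockout strains, and the mating type used for RNA-seq was not given in the sources used here. The labels name the 2 libraries of each group as replicates 1 and 2 but do not say that they came from separate cultures, and the methods of the study mention independent biological replicates only for its RNA and protein measurements in general, so the *P* values measure the spread between these samples, which may in part be technical.

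Blue light is detected in *N. crassa* by the WHITE COLLAR complex, in which the photoreceptor WC-1 and its partner WC-2 act as a transcription factor. The complex activates within minutes a set of genes that includes those for the synthesis of orange carotenoids, for DNA repair and for proteins that act on the light response itself, such as the small photoreceptor VVD, which dampens it. Light also promotes conidiation, the formation of asexual spores at the tips of aerial hyphae. Velvet proteins such as VE-1 are fungal regulators known for linking light to development and secondary metabolism.

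The mutant libraries held 18340957 and 21885041 counts in the dark and 18298057 and 19293597 in the light. Levels are given as CPM, counts per 1000000 counts of a library, after scaling of the libraries by the TMM method, which corrects for differences in composition. A limit of 3 counts per library was used for genes without reads, and this limit and the counting intervals cover counting error only. The deletion was checked first. The level of *ve-1* was 2.38 and 3.47 CPM in the mutant in the dark and 6.32 and 6.48 in the light, against 129 and 128 CPM in dark wild-type libraries and 193 and 204 in lit ones, so that the 2 strains did not overlap. The part of the gene from which the remaining reads of the mutant came was not analysed here. The tissue label was checked with marker genes. Of 6 markers of conidia and aerial hyphae, *con-13* had 0 counts in the 4 mutant libraries and *eas*, which encodes the hydrophobin of the conidial coat, had at most 6, whereas *con-6* and *fl* were detected, as given below. Of 5 markers of sexual tissue, *fmf-1* had 0 counts in these libraries and *ccg-4* between 4 and 7, but *asd-1* had 31.3 and 104 CPM in the dark and 35.3 and 68.9 in the light. It made up most of the summed level of the 5, which was 34.2 and 106 CPM in the dark and 39.4 and 71.4 in the light, higher in replicate 2 of both conditions.

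Light changed a small set of genes strongly and a larger set moderately. The strict call used an absolute log2FC (log2 of the fold change, light against dark) of 2 or more together with an adjusted *P* value below 0.001, and these are named the study's thresholds hereafter because they are the ones in its methods. In the mutant, 76 genes were higher in the light (0.979% of the genes tested) and 2 were lower (0.0258%) by the quasi-likelihood F test of edgeR with Benjamini-Hochberg adjustment. Together the 76 genes made up 0.117% and 0.121% of the counts in the dark libraries and 2% and 2.03% in the light libraries, a description of genes that were chosen for this difference. Of these rises, 43 started from fewer than 10 CPM in the dark, 15 of them from fewer than 1 CPM, and only 1 from 100 CPM or more. In the light, 38 of the 76 reached 100 CPM and 5 reached 1000 CPM. The log2FC was at least 4 for 27 genes and at least 6 for 12. The number of called genes was 48 without replicate 1 of the dark mutant and 51 without replicate 2, and 47 and 50 of these were among the original 78.

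A fold threshold of 2 on the log2 scale hides most of the decreases. At an adjusted *P* value under 0.05 with no minimum change, 549 genes rose (7.07%) and 445 fell (5.73%) in the light. The rises had a median log2FC of 1.16 and the falls of -0.89, and a log2FC of at least 2 in size was reached by 116 of the rises and 3 of the falls. The median over all genes tested was 0.005. The number of genes at this threshold dropped from 994 to 561 without replicate 1 of the dark mutant, to 553 without replicate 1 of the light mutant and to 558 without replicate 2. The gene lists described below were counted at this second threshold, because most of their members changed by less than 4-fold. Each count is to be read beside the shares of 7.07% and 5.73% over the genes tested.

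**Figure D1:**
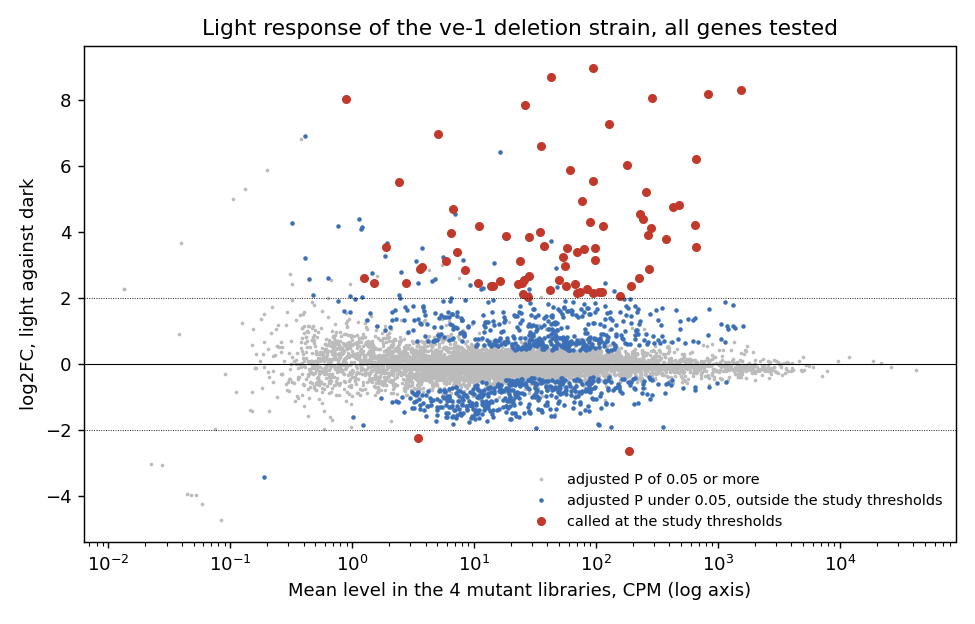
Change with light in the mutant (vertical axis, log2FC, light against dark) against the mean level over the 4 mutant libraries (horizontal axis, CPM, log axis) for the genes tested. Red points are the 78 genes called at the study's thresholds, blue points other genes at an adjusted *P* value under 0.05 and gray points the rest. The 76 red points above the upper dotted line contrast with 2 below the lower one, while the blue points are nearly balanced around 0.

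Among the photoreceptor genes, 3 of 7 rose and none fell, beside 7.07% and 5.73% of the genes tested. The level of *vvd* was 5.48 and 5.92 CPM in the dark and 1771 and 1529 in the light (log2FC of 8.17 ± 0.34 (approximate SE), adjusted *P* = 2.18e-06 in edgeR). Here and below, values after ± are the size of the log2FC divided by the square root of the F statistic. This only approximates an SE and is least certain for genes with few counts. The gene *cry*, which encodes a cryptochrome of the DASH type, a blue light receptor related to photolyases, had 1.39 and 1.87 CPM in the dark and 250 and 255 in the light, a log2FC of 7.26. It shares 681 bases with NCU00583 of the other strand. The mRNA of *wc-1* itself went from 18.6 and 18.2 CPM to 108 and 80.3, a log2FC of 2.36 ± 0.27 (adjusted *P* = 0.00059 in edgeR). In these 3 genes the lowest light library was at least 4 times the highest dark library. The gene for the partner, *wc-2*, had 37.7 and 39.6 CPM in the dark and 37.5 and 35.4 in the light, and the phytochrome genes *phy-1* and *phy-2*, for red light receptors, and the opsin gene *nop-1* had log2FC values of 0.01, 0.11 and -0.12, each with an adjusted *P* value over 0.9. The levels of *phy-2* and *nop-1* were below 1 CPM in the 4 libraries, so only a large change could have been detected.

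Of the 4 clock genes, only *frq* passed the test. It encodes the negative element of the circadian clock and is a direct target of the WHITE COLLAR complex. Its level was 13.8 and 12.2 CPM in the dark and 160 and 135 in the light, a log2FC of 3.50 ± 0.16 (adjusted *P* = 2.77e-06 in edgeR). The genes for the proteins that bind, modify or degrade FRQ, namely *frh* (an RNA helicase), *ck-1a* (a casein kinase) and *fwd-1* (an F-box protein), had log2FC values of -0.02, 0.17 and -0.02, with adjusted *P* values of 0.945, 0.472 and 0.956.

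The carotenoid genes rose together, except for the gene of the last step. The level of *al-1*, which encodes phytoene desaturase, was 9.75 CPM in both dark libraries and 2976 and 3160 in the light (log2FC of 8.30 ± 0.60, adjusted *P* = 4.51e-05 in edgeR). Its share of the counts of a library went from 0.00096% and 0.001% to 0.304% and 0.311%. Phytoene synthase and carotene cyclase are made from *al-2*, whose mRNA went from 18.5 and 16.4 CPM to 1397 and 1195. The level of *al-3*, the gene for geranylgeranyl pyrophosphate synthase, went from 34.6 and 30.3 CPM to 922 and 926, and 32 of its bases are shared with NCU01426 of the other strand. The level of *cao-2*, which encodes the oxygenase that cleaves torulene, went from 27.1 and 33.8 CPM to 758 and 890. These 4 genes were called at the study's thresholds, with log2FC values between 4.76 and 8.30. By contrast, *ylo-1*, the gene for the aldehyde dehydrogenase that makes the final pigment neurosporaxanthin, had 162 and 131 CPM in the dark and 114 and 92.2 in the light, a log2FC of -0.51 with an adjusted *P* value of 0.058.

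Of the early light genes listed, 3 of 4 rose. The log2FC of NCU08770 was 8.95, and its level went from 0.443 and 0.312 CPM to 125 and 249. The blue light-inducible genes *bli-4* and *bli-3* went from 0.0554 and 0.356 CPM to 38.9 and 65.01 and from 2.05 and 5.70 CPM to 146 and 224, respectively. In these 3 genes the light replicate 2 was the higher one. A 154-base overlap of *bli-3* with NCU07266 on the opposite strand was left to the strand-specific counting of the authors. The clock-controlled gene *ccg-1* had 196 and 645 CPM in the dark and 430 and 877 in the light, so that the conditions overlapped, and its log2FC of 0.64 ± 0.69 had an adjusted *P* value of 0.655 in edgeR.

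The 15 largest called rises with at least 10 CPM in the light also held genes outside these lists. The level of *osb-4* (NCU02190) went from 0.222 and 0.178 CPM to 89.4 and 79.7 (log2FC of 8.69 ± 0.26, adjusted *P* = 8.83e-07 in edgeR). NCU07434, annotated as a short-chain dehydrogenase or reductase, went from 0.554 and 0.846 CPM to 58.7 and 80.7. NCU10063 went from 5.37 and 5.48 CPM to 347 and 358. The log2FC values of *mig-12* and NCU11395 were 5.21 and 4.95, with the light libraries between 129 and 614 CPM and the dark libraries below 15 CPM. In each of these genes the light libraries were more than 10 times the dark libraries.

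For 3 of the rises both dark libraries had 3 counts or fewer. NCU00354 had 0 counts in both dark libraries and 37 and 30 counts in the light, and was at least 11.9-fold higher in the light when 3 counts in each dark library are taken as the limit. NCU04950 had 0 and 3 counts in the dark and 127 and 255 in the light, a ratio of 137 with an exact 95% counting interval from 46.6 to 668. NCU07748 had 1 and 3 counts in the dark and 81 and 99 in the light, a ratio of 48.4 with an interval from 18.6 to 180. The fitted log2FC of such genes depends on the prior count and is not quoted here as a bound. Dark counts were also few for *osb-4* (4 and 4), *bli-4* (1 and 8) and NCU08770 (8 and 7). The size of their log2FC is therefore uncertain too.

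**Figure D2:**
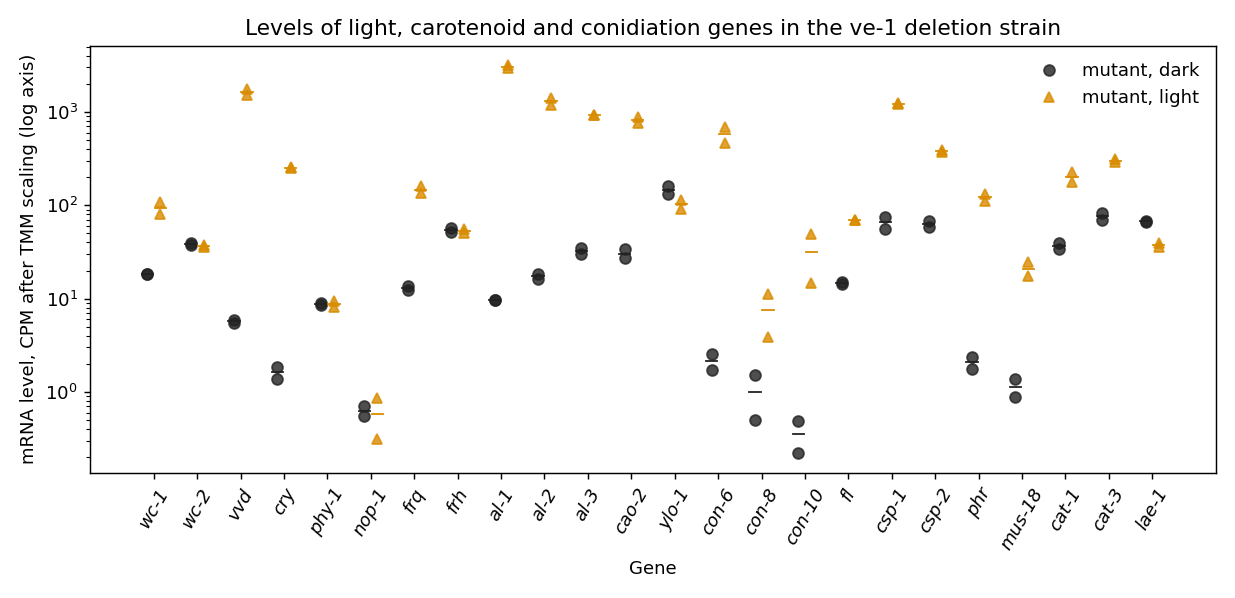
Levels (CPM after TMM scaling, log axis) of 24 genes for photoreceptors, the clock, carotenoid synthesis, conidiation and protection in the 4 mutant libraries. Black circles are dark libraries, orange triangles light libraries and short lines the means of 2. For *al-1*, *vvd* and *cry* the points of the 2 conditions lie far apart, whereas those of *wc-2*, *phy-1*, *frh* and *nop-1* lie close together and *lae-1* is lower in the light.

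Of 5 genes named for conidiation, 2 of the 3 that could be tested rose, *con-6* and *con-10*. The level of *con-6*, a gene expressed in conidia, went from 1.72 and 2.54 CPM to 468 and 687 (log2FC of 8.06 ± 0.60, adjusted *P* = 5.76e-05 in edgeR). It shares 93 bases with NCU08768 of the other strand. The level of *con-10*, another gene named for conidiation, went from 0.222 and 0.490 CPM to 14.6 and 49.3, a log2FC of 6.41 ± 0.93 that passed 0.05 but not 0.001 (adjusted *P* = 0.0021). For *con-8* the levels were 0.499 and 1.51 CPM in the dark and 3.86 and 11.2 in the light, a log2FC of 2.84 with an adjusted *P* value of 0.098, which was 0.0217 with edgeR and 0.0311 with DESeq2 on only the groups compared and 0.0331 and 0.0341 without replicate 1 or 2 of the light wild type. In *con-8*, *con-10* and *ccg-1*, replicate 2 was higher than replicate 1 under both conditions. The counts of *eas* were 1 and 1 in the dark and 1 and 6 in the light, and *con-13* had 0, so neither was tested. The summed level of the 6 markers of conidia and aerial hyphae was 17.5 and 18.9 CPM in the dark and 556 and 817 in the light. In the light, *con-6* alone made up 468 and 687 CPM of this sum. The paper states that mycelia under these conditions stayed vegetative, without conidiophores. From levels in bulk RNA alone, more cells of a type and more RNA per cell cannot be told apart, and this was not tested.

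Of the 14 listed regulators of conidiation and light responses, 7 rose and none fell, beside 7.07% and 5.73% of the genes tested. The level of *csp-1*, a repressor needed for the separation of conidia, went from 56.4 and 75.8 CPM to 1207 and 1235 (log2FC of 4.21 ± 0.22, adjusted *P* = 6.39e-06 in edgeR). The second separation gene, *csp-2*, which encodes a grainyhead-like factor, went from 59.1 and 67.8 CPM to 373 and 395. The level of *fl*, the zinc cluster gene essential for macroconidiation, was 15.0 and 14.3 CPM in the dark and 69.7 and 69.0 in the light, a log2FC of 2.24 ± 0.13. These 3 genes were called at the study's thresholds. Smaller rises that passed 0.05 were found for *sub-1*, a GATA factor (log2FC of 1.76), *rca-1* (1.62), *sah-1* (1.33) and *adv-1* (0.67), and the last was lost without replicate 2 of the dark mutant (adjusted *P* = 0.206) or without replicate 1 or 2 of the light mutant (0.217 and 0.0923). The 7 others, *acon-2*, *acon-3*, *fld*, *ada-6*, *vib-1*, *bek-1* and *hsf-2*, had log2FC values between -0.16 and 0.52.

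Both listed DNA repair genes rose, and *phr* was among the 15 largest called rises described above. Catalases responded unequally. The level of *phr*, which encodes photolyase, the enzyme that uses light to repair UV damage, went from 2.38 and 1.78 CPM to 112 and 131, and that of *mus-18*, the gene for a UV damage endonuclease, from 0.886 and 1.38 CPM to 17.3 and 24.5. The conidial catalase gene *cat-1* had 33.8 and 39.1 CPM in the dark and 178 and 226 in the light, a log2FC of 2.47 ± 0.36 (adjusted *P* = 0.0020 in edgeR). For *cat-3*, the catalase gene of growing hyphae, the levels were 81.8 and 70.2 CPM in the dark and 291 and 312 in the light, a log2FC of 1.99. The remaining 5 of the 9 listed genes, *cat-2*, *cat-4*, *ccp-1* (cytochrome *c* peroxidase), *sod-1* and *sod-2* (superoxide dismutases), had log2FC values between -0.20 and 0.78 and adjusted *P* values over 0.3.

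Within the velvet group, *lae-1*, which encodes a putative methyltransferase that is a partner of velvet proteins, fell in the light. Its level was 66.9 and 68.4 CPM in the dark and 39.01 and 35.5 in the light (log2FC of -0.86 ± 0.11, adjusted *P* = 0.0012 in edgeR). In the wild type it was lower in both conditions, with 6.64 and 5.90 CPM in the dark and 2.63 and 2.46 in the light, and also fell (log2FC of -1.30). The velvet gene *vos-1* had 1.55 and 2.89 CPM in the dark and 4.82 and 6.38 in the light, a log2FC of 1.31 with an adjusted *P* value of 0.065. It passed 0.05 at about the same fold with scaling by library size only (0.0397), without the filter (0.0422), with DESeq2 (0.00357, and 0.0141 on only the groups compared), with edgeR on only the groups compared (0.0307) and without replicate 1 or 2 of the light wild type (0.0205 and 0.0217). It shares 197 bases with NCU05965 of the other strand. The remaining reads of *ve-1* had a log2FC of 1.11 in the mutant (adjusted *P* = 0.0032) and those of the intact gene 0.63 in the wild type. The name *ve-2* had no match among the gene names used here.

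Some of the other called rises had an annotation. The gene *dcc-1*, named for the control of development and carotenogenesis, went from 32.1 and 36.7 CPM to 154 and 156. NCU09210, annotated as a dye-decolorizing peroxidase, went from 0.997 and 0.579 CPM to 11.4 and 13.1, and *abc-10*, an ABC transporter gene, from 27.6 and 26.3 CPM to 124 and 119. The *N*-acetylglucosaminidase gene *nag-1* and the cell wall protein gene *ncw-6* had log2FC values of 2.44 and 2.20. The only rise with more than 100 CPM in the dark was NCU08291, from 122 and 90.1 CPM to 1221 and 1238. Of the 76 rises, 45 had no gene symbol.

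The called falls were NCU09497 and NCU06328. The level of NCU09497 was 388 and 256 CPM in the dark and 56.8 and 46.8 in the light (log2FC of -2.64 ± 0.28, adjusted *P* = 0.00047 in edgeR), and the wild type had a log2FC of -2.94. NCU06328 had 4.93 and 6.50 CPM in the dark and 1.13 and 1.32 in the light, a log2FC of -2.22 with an adjusted *P* value of 0.00088. It lies on chromosome IV at 2898675 to 2901635, near *cyp450-29* (NCU06327, 2904592 to 2907521), a cytochrome P450 gene that went from 491 and 621 CPM to 142 and 159 (log2FC of -1.88, adjusted *P* = 7e-05). Without replicate 1 or 2 of the light mutant, or of the dark wild type, no fall was called at the study's thresholds.

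The 10 largest falls with at least 10 CPM in the dark at an adjusted *P* value under 0.05 included NCU09497 and *cyp450-29*. NCU03092, annotated as a nuclear localization sequence binding protein, went from 60.5 and 42.03 CPM to 14.04 and 13.02 (log2FC of -1.92). The gene *prm-1*, for a protein arginine methyltransferase, went from 178 and 148 CPM to 43.1 and 50.1 (log2FC of -1.80). The ribosome biogenesis gene *rbg-27* had a log2FC of -1.82, with 12.9 and 8.10 CPM in the dark and 2.63 and 3.27 in the light. It overlaps NCU02676 on the opposite strand by 1500 bases. The others were NCU08397, NCU04058, *ubi-2*, NCU00336 and NCU10062, with log2FC values between -1.67 and -1.89. NCU10062 fell from 16.5 and 14.7 CPM to 4.50 and 5.27, whereas NCU10063, described above, was among the largest rises.

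Genes for making ribosomes fell in the light, whereas genes for the ribosomal proteins did so in 1 of 27 cases. Ribosome biogenesis factors act mainly in the nucleolus, where they process ribosomal RNA and assemble it with proteins. Of the 11 tested genes with the name *rbg*, 10 fell and none rose at an adjusted *P* value under 0.05, and their median log2FC was -1.24 beside 0.005 for the genes tested. In 11 of 11, both light libraries were below both dark libraries, which was the case for 27.3% of the genes tested. The level of *rbg-33* was 32.7 and 27.2 CPM in the dark and 9.59 and 12.1 in the light (log2FC of -1.47 ± 0.16, adjusted *P* = 0.00055 in edgeR). The level of *rbg-59* went from 30.9 and 26.5 CPM to 12.8 and 12.8, and that of *rbg-7* from 15.9 and 12.9 CPM to 4.55 and 5.22. The exception was *rbg-40*, with a log2FC of -0.51 and an adjusted *P* value of 0.060. Without 1 of the mutant libraries, between 7 and 9 of the 11 fell. In the wild type 10 of the 11 fell as well, with a median log2FC of -1.13. Names were available for only a part of the genes, and 10 of these 11 lie on chromosome I, so the list is a sample of this class.

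Other genes with nucleolar or ribosomal RNA words in their descriptions were picked out after their values were seen and were not tested as a list. Of 8 such genes, 7 fell at an adjusted *P* value under 0.05. The pescadillo gene *nop7*, needed for the large ribosomal subunit in yeast, went from 57.3 and 45.2 CPM to 17.79 and 21.3 (log2FC of -1.39). The level of *nog2*, a nucleolar GTP-binding protein gene, went from 32.7 and 26.7 CPM to 13.1 and 11.97, and that of *nop12* from 20.1 and 17.4 CPM to 9.001 and 7.91.

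For the protein parts of the ribosome and of respiration, few or no genes passed the test. Of 27 cytosolic ribosomal protein genes (*crp*), none rose and only *crp-42* fell (log2FC of -0.85, adjusted *P* = 0.0073), and its description is that of a ribosome biogenesis protein, so it is also among the 8 genes above. That call was lost without replicate 1 of the dark mutant (adjusted *P* = 0.0626) or of the light mutant (0.0738). The log2FC was below 0 for 27 of the 27, and the median of the list was -0.16, or -0.03 and -0.31 without replicate 1 or 2 of the dark mutant. None of 11 mitochondrial ribosomal protein genes, 9 translation initiation genes and 39 respiratory chain genes passed the test, with medians of -0.23, -0.08 and -0.02. Without replicate 1 of the dark mutant the medians were -0.05, -0.07 and 0.04, and without replicate 2 they were -0.37, -0.26 and -0.11. Without replicate 1 of the light mutant they were -0.24, -0.13 and -0.05, and without replicate 2 -0.23, -0.09 and -0.04. Of the mitochondrial ribosomal protein genes, 10 of 11 were below 0. The largest of these, the log2FC of -0.41 of *mrp-57*, had an adjusted *P* value of 0.067, and of 0.0443 without replicate 2 of the dark mutant.

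**Figure D3:**
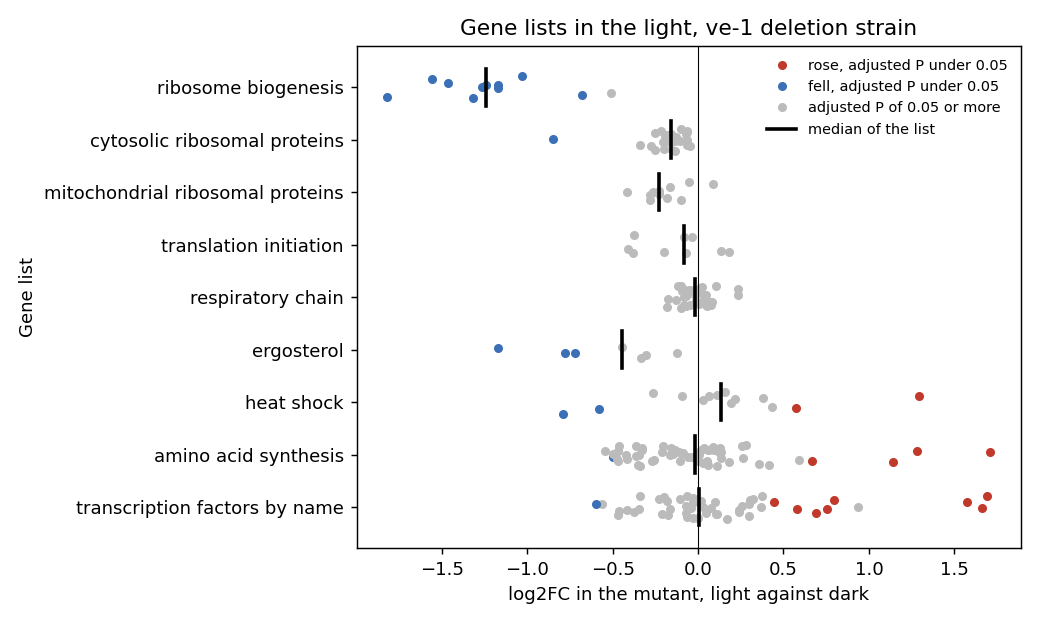
Change with light in the mutant (horizontal axis, log2FC) of the tested members of 9 gene lists, 1 point a gene. Blue points fell and red points rose at an adjusted *P* value under 0.05, gray points did not pass, and black bars are medians. The ribosome biogenesis genes lie between -1.82 and -0.51, whereas the ribosomal protein and respiratory chain genes lie near 0, except for *crp-42* at -0.85.

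In the synthesis of ergosterol, the main sterol of fungal membranes, 3 of 7 genes fell and none rose (median log2FC of -0.45). Over the genes tested, 5.73% fell and 7.07% rose. The level of *erg-4* went from 322 and 290 CPM to 140 and 131 (log2FC of -1.17 ± 0.12, adjusted *P* = 0.00029 in edgeR). The falls of *erg-1* (-0.78) and *erg-14* (-0.72) were smaller and did not hold in most fits without 1 of the mutant libraries, of which those without replicate 1 or 2 of the light mutant called 1 gene of the list.

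Heat shock, amino acid and other lists were mixed, beside 7.07% of the genes tested that rose and 5.73% that fell. Of 14 heat shock genes, 2 rose, *hsp70-3* (278 and 292 CPM in the dark, 729 and 669 in the light) and *hsp98* (log2FC of 0.57), and 2 fell, *hsp70-4* (-0.79) and *hsp70-2* (-0.58). Of these, *hsp98* was lost without replicate 1 of the dark mutant (adjusted *P* = 0.112) or without replicate 1 or 2 of the light mutant (0.105 and 0.0656), and *hsp70-4* without replicate 1 of the dark mutant (0.109) or of the light mutant (0.133). The list had no fall in either of these last fits and 1 fall, with *hsp70-4* still called, without replicate 2 of the light mutant, so that *hsp70-2* also lost its call in these 3 fits. Of 58 amino acid synthesis genes, 4 rose and 1 fell, the fall being that of *cys-5* (log2FC of -0.50), a share of rises close to the 7.07% over the genes tested. No gene of the list fell without replicate 1 of the dark mutant or without replicate 1 or 2 of the light mutant, and 2 fell without replicate 2 of the dark mutant or of the dark wild type, 4 without replicate 1 or 2 of the light wild type and 7 with DESeq2 on the same libraries. The largest rise was that of *ilv-5*, of isoleucine and valine synthesis, from 24.3 and 26.6 CPM to 78.4 and 88.3, followed by *lys-10* (log2FC of 1.28) and *cys-11* (1.14). The call of *lys-10* was lost without replicate 1 of the dark mutant (adjusted *P* = 0.0684) or of the light mutant (0.0614), and without replicate 1 of either the list had 2 rises. Of 5 trehalose and glycogen genes, *tre-2* rose (log2FC of 0.67), and the rise was lost without replicate 1 of the dark mutant (adjusted *P* = 0.0909) or without replicate 1 or 2 of the light mutant (0.0825 and 0.0551), and *tre-1* and *tps-1* had log2FC values of -0.81 and 0.32 and did not pass. None of the 5 tested mating and sexual development genes passed, *poi-2*, *asd-1* and *pre-1* having log2FC values of 0.36, -0.38 and 0.06.

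Of 52 transcription factor genes taken by their names, 8 rose and 1 fell at an adjusted *P* value under 0.05. Over the genes tested, 7.07% rose and 5.73% fell. The largest rises were those of *znf-21*, from 74.9 and 99.6 CPM to 253 and 311 (log2FC of 1.69), of *vad-3* (1.66) and of *vad-2* (1.57). The number of rises in the list was 5 without either replicate of the dark mutant and 4 without replicate 1 of the light mutant, and the single fall, that of *ff-10* (log2FC of -0.60), was lost without any 1 of the 4 mutant libraries.

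Some of the called genes were neighbours on the chromosome. Among 6567 pairs of adjacent tested genes in the NC12 assembly, both members were called in 6 pairs, which held 11 genes. Of these pairs, 4 were divergent, transcribed away from each other, and 2 were in tandem, whereas 2000 of the 6567 pairs were divergent and 2690 in tandem. On chromosome III, NCU08770 (5203616 to 5204342) and *con-6* (5205042 to 5205927) are divergent and separated by 699 bases, and their log2FC values were 8.95 and 8.06. On chromosome I, *ncw-6* (7917286 to 7919672), *al-2* (7920916 to 7924255) and NCU00584 (7924267 to 7926022) follow each other, with log2FC values of 2.20, 6.22 and 2.26, and only 11 bases separate the last 2. The developmental gene *fl* lies on chromosome II at 3805777 to 3809265, with NCU08727 (log2FC of 2.16) 478 bases away in tandem. The other pairs were NCU09829 with *mig-12* and NCU09534 with NCU09535, both on chromosome V. The 6 pairs are a description, with no test.

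The response of the mutant was then compared with that of the wild type, to ask whether VE-1 is required for any part of it. In the wild type, 97 genes rose (1.25%) and 4 fell (0.0515%) at the study's thresholds, and 619 rose (7.98%) and 574 fell (7.40%) at an adjusted *P* value under 0.05. The wild-type count of 101 dropped to 60 and 61 without replicate 1 or 2 of the dark wild type. Of the 445 genes that fell in the mutant at 0.05, 372 fell in the wild type, which is 83.6% of the falls of the mutant and 64.8% of those of the wild type. Of the 549 that rose, 446 rose in the wild type, which is 81.2% and 72.1%. The 76 called rises had a median log2FC of 3.51 in the mutant and of 3.39 in wild-type mycelia, and the size was larger in the wild type for 44 of them and in the mutant for 32. Of the 97 rises called in the wild type, which is the choice from the other side, 66 were larger in wild-type mycelia and 31 were larger in the mutant, with a median difference (mutant minus wild type) of -0.22. Across the genes tested, the log2FC values of the strains, which come from separate libraries, had a Pearson correlation of 0.875, a description over genes that are not independent.

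The difference of the responses was tested as the interaction of strain and light. By edgeR with group means, 0 genes differed (0%) in either direction at the study's thresholds or at an adjusted *P* value under 0.05, and 189 had an unadjusted *P* value under 0.05. With the replicate number added as a block, 464 had an unadjusted *P* value under 0.05 and 19 passed 0.05 after adjustment, as described below. The count was also 0 with another scaling (RLE), with library size only and without the filter on low counts. It thus depended on the model, and a count of 0 does not show that the strains responded alike. DESeq2 called 2 genes, NCU01926 and NCU00999. The level of NCU01926 was 10.6 and 13.5 CPM in the dark and 128 and 125 in the light in the mutant, and 4.27 and 4.28 and 16.9 and 18.5 in the wild type, so that the light libraries of the strains were far apart. Its log2FC values of 3.39 (mutant) and 2.05 (wild type) gave a difference of 1.34 ± 0.21 (unadjusted *P* = 0.00014, adjusted *P* = 0.568 in edgeR). NCU00999 responded more in the wild type, with 12.1 and 11.1 CPM in the dark and 31.1 and 32.8 in the light in the mutant and 14.3 and 16.9 and 98.3 and 92.0 in the wild type, a difference of -1.15.

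The next 3 genes by the *P* value of this difference were NCU07108, NCU01891 and NCU01089. NCU07108 had 16.2 and 14.1 CPM in the dark and 18.1 and 14.2 in the light in the mutant but went from 26.6 and 28.8 CPM to 11.2 and 12.6 in the wild type. NCU01891 had a log2FC of 1.22 in the mutant and of -0.33 in wild-type mycelia, and NCU01089 of 1.41 and 2.35. With adjusted *P* values of 0.638, 0.776 and over 0.99 in edgeR, none of these differences passed the test in the fit of group means.

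Of the genes called in the mutant, 5 were not called in the wild type: NCU00354, *put-3*, NCU02882 and NCU08402, which rose, and NCU06328, which fell. In turn, 28 genes were called in the wild type and not in the mutant, among them *mip-1*, with a log2FC of 1.85 in the mutant against 2.73, and NCU07541, with 2.47 against 4.30. None of these genes, on either side, differed between the strains after adjustment in this fit. For NCU02882 the log2FC was 2.03 in the mutant against 1.995 in wild-type mycelia, on either side of the threshold. For *put-3*, annotated with arginase activity, it was 2.05 and 1.56, with 61.4 and 60.6 CPM in the dark mutant, below the 181 and 240 CPM of the dark wild type. NCU08402 had the smallest unadjusted *P* value of the 5 for the difference (0.0051), with a log2FC of 2.55 and 1.65, and NCU06328 had -2.22 and -1.32. The counts of NCU00354 in the dark, 0 and 0 in the mutant and 6 and 2 in the wild type, were too few to compare the folds. Among the listed genes, *con-10* had 14.6 and 49.3 CPM in the light in the mutant and 95.9 and 286 in the wild type, and *bli-4* had 38.9 and 65.01 and 108 and 235. Their log2FC values did not differ clearly between the strains. The difference was -1.32 ± 1.63 for *con-10* and -2.59 ± 1.59 for *bli-4* (unadjusted *P* = 0.44 and 0.14 in edgeR). Their dark counts were few. They were 4 and 11 in the mutant and 11 and 19 in the wild type for *con-10*, and 1 and 8 and 2 and 2 for *bli-4*. A difference of the folds could therefore have been missed. For *sah-1* the log2FC values were 1.33 and 2.30, with an unadjusted *P* value of 0.0059 for the difference.

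**Figure D4:**
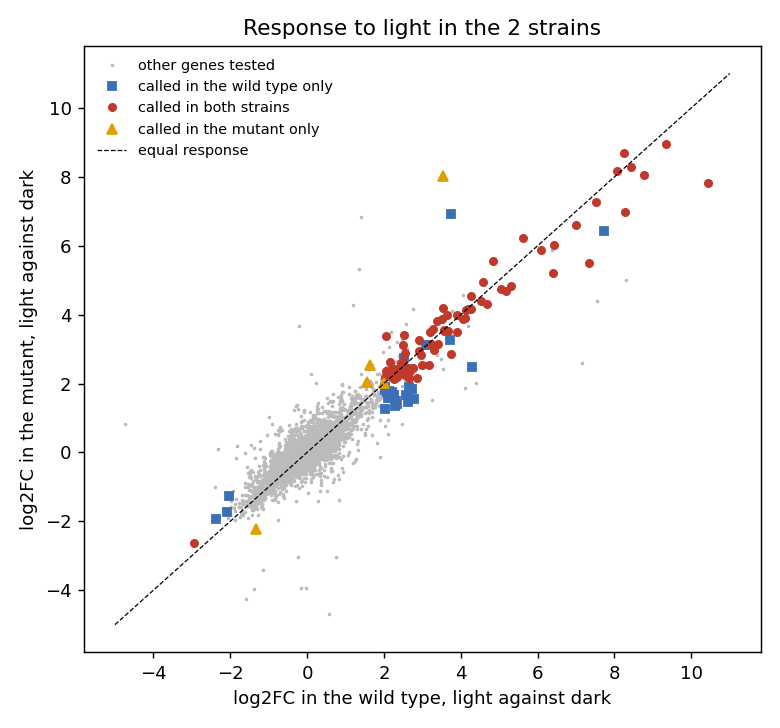
Change with light in the mutant (vertical axis, log2FC) against the change in the wild type (horizontal axis, log2FC) for the genes tested. Red circles were called in both strains, yellow triangles in the mutant only, blue squares in the wild type only and gray points in neither, and the dashed line marks equal responses. Most called genes lie near the line. The log2FC values of the strains differed by at least 1 for 6 of the 76 rises called in the mutant. The same held for 10 of the 97 rises called in the wild type. The interaction test called 0 genes in the fit of group means.

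Fewer genes passed the adjusted tests for light in the aerial tissue of the mutant. In A15, 0 genes were called at the study's thresholds (0%), and 27 rose (0.334%) and 19 fell (0.235%) at an adjusted *P* value under 0.05 in edgeR, with 1618 at an unadjusted *P* value under 0.05. These libraries were noisier. The SD over genes of the log2 ratio of the replicates was 1.08 in the dark and 0.435 in the light in A15, against 0.374 and 0.330 in vegetative mycelia, and the fit of both stages called 21 genes in vegetative mycelia in place of 78. At an adjusted *P* value under 0.05, that edgeR fit called 129 rises and 7 falls in vegetative mycelia. There, 706 genes had an unadjusted *P* value under 0.05, fewer than in A15. A log2FC of at least 2 in size was reached by 216 genes in vegetative mycelia and 221 in A15. Of the 76 rises of vegetative mycelia, 62 had a positive log2FC in A15 and 16 of these passed 0.05, with a median over the 76 of 0.96 in A15 and 3.51 in vegetative mycelia. The 76 were chosen for their size in vegetative mycelia, so that a smaller value in other libraries follows in part from the choice, and these medians are a description.

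The interaction of stage and light called 31 genes at an adjusted *P* value under 0.05 in edgeR (0.383%), each with the higher log2FC in vegetative mycelia, and 0 with the higher log2FC in A15. Of the 31, 25 were called rises of vegetative mycelia, a class that held 0.979% of the genes tested there. Both tests used the same vegetative libraries of the mutant, so this overlap follows in part from the choice and is a description. The count of 31 depends on single libraries. It was 0 without replicate 1 or 2 of light A15 and without replicate 1 or 2 of the dark vegetative mutant, 3 and 2 without replicate 1 or 2 of the light vegetative mutant, and 2001 and 1221 without replicate 1 or 2 of dark A15, with 1065 and 568 genes higher in vegetative mycelia. DESeq2 called 232 genes, 207 of them higher in vegetative mycelia.

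Single genes show what these differences consisted of. Scaled with the A15 libraries, *osb-4* had 0.244 and 0.195 CPM in the dark and 97.6 and 86.4 in the light in vegetative mycelia and 10.9 and 7.998 in the dark and 42.9 and 41.3 in the light in A15 (difference in log2FC of 6.52 ± 0.39, adjusted *P* = 0.0024 in edgeR). The dark vegetative libraries held 4 counts each of *osb-4*, so the size of its difference is uncertain. For *cry* the levels in A15 were 48.3 and 53.3 CPM in the dark and 214 and 188 in the light, and the difference was 5.27. NCU08770 reached 1287 and 1182 CPM in A15 in the light, above its level in vegetative mycelia, but already had 182 and 151 CPM in the dark, and the difference was 6.04. NCU07434, with 54.7 and 50.4 CPM in the dark and 266 and 292 in the light in A15, behaved likewise (difference of 4.19). NCU06420 instead had 26.5 CPM in both dark libraries of A15 and 46.3 and 38.5 in the light, against 35.2 and 37.9 and 516 and 566 in vegetative mycelia (difference of 3.21).

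The regulators *csp-1* and *csp-2* also had higher dark levels in A15 than in vegetative mycelia. The level of *csp-1* in A15 was 675 and 1405 CPM in the dark and 856 and 975 in the light, and that of *csp-2* 533 and 483 and 479 and 460, so that their log2FC values were -0.18 and -0.11 in place of 4.21 and 2.60. The carotenoid gene *al-1* had 666 and 207 CPM in the dark and 864 and 792 in the light in A15, a log2FC of 0.92 with an adjusted *P* value of 0.340. The gene *bek-1*, which did not pass in vegetative mycelia, fell in A15 from 14.1 and 15.5 CPM to 2.84 and 3.37 (log2FC of -2.25, adjusted *P* = 0.038 in edgeR). Of the 76 rises, 54 had both dark libraries of A15 above both dark libraries of vegetative mycelia, against 36.4% of the genes tested. In the light, 28 were higher in A15 without overlap and 45 were lower, beside 45.3% and 41.2% of the genes tested. The rises were chosen for a low dark level relative to the light in vegetative mycelia, so the first count is a description only.

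**Figure D5:**
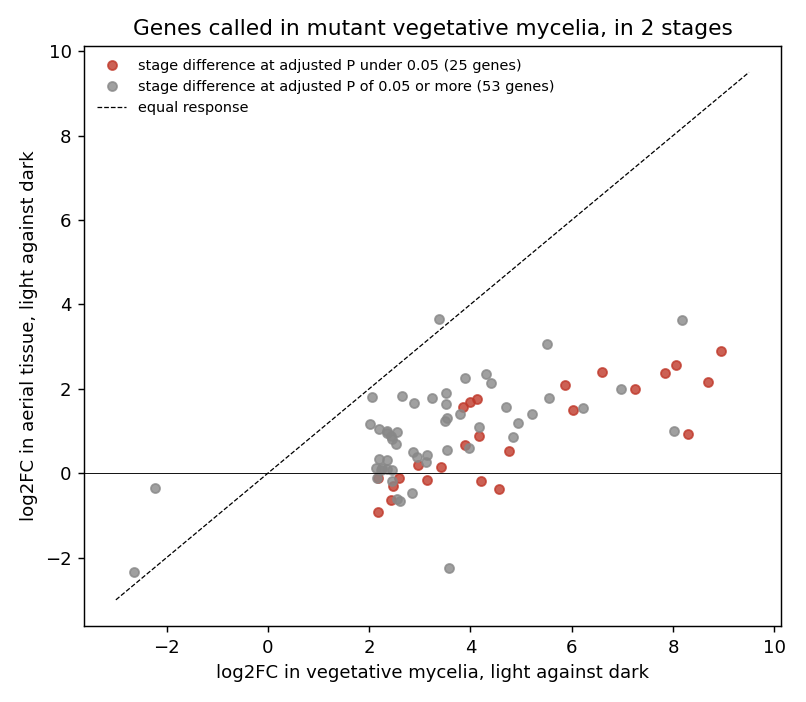
Change with light in A15 (vertical axis, log2FC) against the change in vegetative mycelia (horizontal axis, log2FC) for the 78 genes called in vegetative mycelia of the mutant. Red points are the 25 genes with a difference between the stages at an adjusted *P* value under 0.05, gray points the other 53, and the dashed line marks equal responses. Of the 76 rises, which were chosen for their size in vegetative mycelia, 75 lie below the line.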

How the data were processed

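RNA-seq libraries of poly(A) RNA were sequenced by the authors as single-end reads of 100 nucleotides, which they preprocessed with AfterQC, mapped to the OR74A genome (NC12) with TopHat 2.11 and counted over the exons of merged transcripts with SeqMonk, on the assumption that reads are specific for the opposing strand. Deposited were raw counts, not normalized, for 9758 genes in 24 libraries. Gene symbols came from RefSeq (NC12 assembly, 1118 genes, with 9757 identifiers matched) and, for 721 further genes, from the annotation columns of the study's tables, which were held only in part. Comparisons computed by the authors were not used.

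The filterByExpr function (minimum count of 10) removed genes with few counts. The 8 libraries of vegetative mycelia were fitted with group means by the quasi-likelihood method of edgeR 4.0.16 (R 4.3.3, TMM scaling). The stages were compared in a separate fit of the 8 mutant libraries of vegetative mycelia and A15 (8092 genes). Alternatives used DESeq2 1.42.0 and edgeR. The gene lists were described by counts and medians. Genes named were the members of the short lists, the 15 largest called rises and the 10 largest falls with at least 10 CPM, the genes called only in the mutant, the 5 genes with the smallest *P* value in each interaction and 3 genes of each other list. Other called rises, 2 genes called only in the wild type and 8 nucleolar genes were picked with their values in view. The members and lists were chosen with earlier results of these data known.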

Additional observations from a re-analysis of the deposited data

Results flagged for a closer look

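Some responses to light differed between the stages of the mutant by a test of the difference itself, the interaction of stage and light. Stage cannot be told apart from temperature and culture in these samples. At an adjusted *P* value under 0.05 in edgeR, 31 genes differed. As described above, both this count and the direction of the differences changed when single libraries were left out. The genes with the smallest *P* values had a log2FC that was higher in vegetative mycelia than in A15 by 6.52 (*osb-4*), 5.27 (*cry*), 3.21 (NCU06420), 4.19 (NCU07434) and 6.04 (NCU08770). The A15 dark libraries of the mutant differed from each other more than the other pairs of replicates (SD over genes of the log2 ratio of 1.08, against 0.330 to 0.455 elsewhere), and the part of this spread in the differences was not tested.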

How the results depend on the processing

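Every alternative changed 1 choice, or the tool and the libraries fitted. For the called genes of the mutant (78), RLE scaling, library size only, no filter, DESeq2 and edgeR on only the groups compared gave between 76 and 98, and between 71 and 78 of the original genes were kept. With the same fold and 0.05 as the limit of the adjusted *P* value it was 119, and it was 216 at 0.001 with a log2FC of at least 1 (158 up, 58 down). With the replicate number of the titles as a replicate block, it was 119, which included the original 78, and 1833 genes passed 0.05 in place of 994. Deviations of same-numbered libraries correlated across genes between 0.384 and 0.549 over the 6 pairs of groups. Same-numbered libraries thus shared a part of their deviations, but no label says what a number marks. The main fit left the numbers out, and what they mark was not tested. The interaction of strain and light stayed at 0 genes with RLE scaling, library size only and no filter. It became 2 with DESeq2 and 19 with the block, 14 of them higher in the mutant. These 19 included NCU01926, NCU00999, NCU07108 and *aod-1* (adjusted *P* of 0.00801 each in edgeR), NCU01891 (0.0408), NCU01089 and *sah-1* (0.0417 each), and with the block the light response of the mutant also passed 0.05 for *con-8* (2.23e-08), *ccg-1* (0.00165), *ylo-1* (0.00193), *vos-1* (6.82e-05), *cat-2* (0.0143) and *tre-1* (0.0036). The stage interaction (31) became 18 with library size only and 232 with DESeq2. Leaving out each library in turn gave 48 to 85 called genes in the mutant, 553 to 1072 at 0.05, 60 to 113 in the wild type and 0 to 2001 for the stage interaction. The cause of these changes was not tested, but a lone library of a group was assumed to vary like the other groups. Over 15 alternatives, none of the 109 genes examined reversed with a call, 8 lost their call at 0.05 in at least 1 and 10 gained one. With 2 libraries a group, small changes could have been missed, as could changes of genes near 3 counts.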

Other observations

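The gene *aod-1*, which encodes the alternative oxidase of the mitochondrion and was picked out after its values were seen, had 25.3 and 21.7 CPM in the dark and 67.0 and 59.3 in the light in the mutant. Wild-type mycelia had 22.5 and 16.7 CPM in the dark and 27.4 and 20.6 in the light, so that the light libraries of the strains did not overlap. Its log2FC was 1.43 in the mutant against 0.29, and the difference of 1.14 had an unadjusted *P* value of 0.00215 in edgeR and an adjusted *P* value over 0.99.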
